A study of Homo sapiens with 12 samples.

Results

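Cholesterol and fatty acids are built by a chain of enzymes whose genes are switched on together by the sterol regulatory element-binding proteins (SREBPs). Described here are 35 genes of that programme, listed by name for their place in the pathway and not by a measured value, each by its brightest probe: 18 genes of the sterol arm, from ACAT2 to DHCR7, 7 regulators and sterol transport genes, and 10 genes of the fatty acid arm. Probes were named for 34 of the 35, and all 34 were detected on at least 1 array, among 12138 genes detected in all. FDFT1, squalene synthase, had no named probe and was not analysed here.

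Expression was measured with Illumina HT-12 v4 BeadChips in SK-N-Be(2)C cells, an established line of human neuroblastoma, a childhood tumour of the sympathetic nervous system, derived from bone marrow. DoxR-v cells were made doxorubicin-resistant by stepwise exposure, ending with 5 passages at about 2 log10 units above the IC50, while receiving vorinostat (SAHA), a histone deacetylase inhibitor, at its 25% inhibitory concentration at each step. DoxR cells were made resistant in the same way without vorinostat, WT-v cells were parental cells given vorinostat on that schedule, and WT cells were the untreated parental line. Each of the 4 groups had 3 arrays. Both resistant lines were selected populations, 1 line each, so DoxR-v differed from DoxR by vorinostat and by a separate selection, which cannot be told apart. Whether WT cells were cultured alongside WT-v cells is not stated, so vorinostat and culture history cannot be told apart there. Nothing in the labels says that the replicates came from separate cultures, so p-values measured only the spread between these arrays, which may be technical.

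All 8 named noradrenergic neuroblastoma markers were detected on every array of each group, with a summed signal of 62620 to 76720 in DoxR-v, 49150 to 54320 in DoxR, 62230 to 67180 in WT-v and 59040 to 80490 in WT cells. By the thresholds given below, none of these 8 was higher and 2 lower in DoxR-v, 1 and 3 in DoxR, and none and 1 in WT-v against WT cells. Of all genes, 13.3% were higher and 12.6% lower in DoxR-v, 17.4% and 16.3% in DoxR, and 14.5% and 12.5% in WT-v cells. DBH, dopamine beta-hydroxylase, gave the largest log2 differences of the 8 markers, −4.09 in DoxR against WT and 4.29 in DoxR-v against DoxR cells. Of 7 mesenchymal markers, COL1A2, FN1, PRRX1 and YAP1 were not detected on any array, but the summed signal of the other 3, led by VIM, was 2898 to 4651 in DoxR-v, 13320 to 14720 in DoxR, 4244 to 4725 in WT-v and 695 to 772 in WT cells, and VIM was higher in all 3 of the other groups than in WT cells. Of 5 named blood markers, PTPRC, CD3E and LYZ were not detected, and the summed signal of CD14 and CD68 was 241 to 376 in DoxR-v, 286 to 373 in DoxR, 222 to 358 in WT-v and 324 to 770.0 in WT cells. CD14 was lower than in WT cells in the other 3 groups (log2 differences of −1.64 in DoxR-v, −1.55 in DoxR and −1.37 in WT-v). The part of these marker genes in the results below was not tested. The median raw signal lay between 98.7 and 125 on the 12 arrays, and 31.3% to 36.5% of probes were detected. Arrays of 1 group correlated with r of 0.981 to 0.993 across probes detected on at least 1 array. In a bulk sample, fewer cells of a type and less RNA per cell cannot be told apart.

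SREBPs are made as membrane proteins of the endoplasmic reticulum. When sterols are scarce, SCAP escorts them to the Golgi, where proteases free the part that enters the nucleus, and when sterols are plentiful the INSIG proteins hold SCAP and SREBP back. The freed factors bind sterol regulatory elements, usually beside sites for NF-Y, which reads CCAAT, and Sp1, which reads GC boxes. SREBF2 is known mainly for the cholesterol genes and SREBF1 for the fatty acid genes.

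The bases just before the transcription start, which were searched for these motifs, are shown for 6 members whose calls in DoxR-v against WT cells were not all alike. HMGCS1, MVK, MSMO1 and NSDHL were sterol enzymes lower in DoxR-v than in WT cells, CYP51A1 was the sterol enzyme that was higher, and SREBF2 encodes the factor itself. Each run is the 160 bases from −160 to −1 on the gene's strand, in RefSeq GRCh38.p14. Capitals mark CCAAT or its complement ATTGG, and in SREBF2 also the match to TCACNCCAC.
HMGCS1 (chr5:43313413-43313572, minus strand): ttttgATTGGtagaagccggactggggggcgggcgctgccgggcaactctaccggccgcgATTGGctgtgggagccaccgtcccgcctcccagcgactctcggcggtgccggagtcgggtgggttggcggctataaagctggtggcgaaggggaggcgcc
MVK (chr12:109573634-109573793, plus strand): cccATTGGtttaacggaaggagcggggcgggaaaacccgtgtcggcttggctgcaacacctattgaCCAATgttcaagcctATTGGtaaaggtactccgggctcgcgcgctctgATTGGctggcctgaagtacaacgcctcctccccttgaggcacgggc
MSMO1 (chr4:165327509-165327668, plus strand): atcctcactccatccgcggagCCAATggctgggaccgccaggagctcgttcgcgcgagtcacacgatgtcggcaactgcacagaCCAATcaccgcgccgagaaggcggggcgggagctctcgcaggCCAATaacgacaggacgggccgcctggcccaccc
NSDHL (chrX:152830903-152831062, plus strand): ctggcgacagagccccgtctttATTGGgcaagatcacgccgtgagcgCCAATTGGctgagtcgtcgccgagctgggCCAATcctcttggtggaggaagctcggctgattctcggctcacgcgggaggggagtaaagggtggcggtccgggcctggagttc
CYP51A1 (chr7:92134478-92134637, minus strand): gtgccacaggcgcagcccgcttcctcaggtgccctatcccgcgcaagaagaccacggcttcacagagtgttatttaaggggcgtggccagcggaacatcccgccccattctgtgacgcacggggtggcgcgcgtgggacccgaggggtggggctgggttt
SREBF2 (chr22:41832945-41833104, plus strand): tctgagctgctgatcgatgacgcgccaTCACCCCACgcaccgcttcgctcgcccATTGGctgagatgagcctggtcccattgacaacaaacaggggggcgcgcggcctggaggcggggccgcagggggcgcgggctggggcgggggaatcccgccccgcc
In MVK, CCAAT or ATTGG began at −157, −94, −79 and −46, and in MSMO1 at −139, −76 and −34. NSDHL held matches at −138, −113, −110 and −84, of which those at −113 and −110 overlap. HMGCS1 had matches at −155 and −100, and CYP51A1 had none. SREBF2 carried TCACCCCAC at −133 and ATTGG at −106.

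Windows of 300 bases (250 before and 50 after the start) were available for 31 members and searched on both strands. CCAAT was found in 20 of 31 members (64.5%), against 35.7% of 27305 RefSeq promoters, and in 12 of the 15 sterol arm windows. GGGCGG, the GC box, was found in 28 of 31 (90.3%), against 44.6% of all promoters. CACGTG, the E-box, was found in 5 of 31 (16.1%), against 7.43% of all promoters. TCACNCCAC was found in 1 of 31, the SREBF2 window, against 1.15% of all promoters. Sterol genes not called in DoxR-v against WT cells, by the thresholds below, held 3 CCAAT matches (FDPS, MVD), 2 (HSD17B7), 1 (LSS, TM7SF2) or 0 (PMVK, IDI1). Of the lower sterol genes not shown above, EBP held 3, DHCR7 2 and SC5D 1. In these windows, which are longer than the runs of 160 bases shown, MVK and NSDHL held 5, MSMO1 4 and HMGCS1 2. ACAT2 and SQLE, also lower, had no window here. A relation between matches and calls was not tested. Such matches describe the letters of these windows and are not measurements of binding.

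A member is called higher or lower below where its probe passed an adjusted p under 0.1 (limma, Benjamini-Hochberg over all detected probes) and a fold change over 1.5. Values are normalised log2 signals, and a log2 difference of 1 is a 2-fold difference. In DoxR-v against WT cells, 3 of 34 members were higher, beside 13.3% of all genes, and 11 were lower, beside 12.6% of all genes. In DoxR against WT cells, 4 were higher and 6 lower, beside 17.4% and 16.3% of all genes. In WT-v against WT cells, 12 were higher and 1 lower, beside 14.5% and 12.5%. In DoxR-v against DoxR cells, 6 were higher and 10 lower, beside 14.7% and 14.4%. In DoxR-v against WT-v cells, 2 were higher and 17 lower, beside 12.6% and 12.8%. Groups recur between these comparisons, which are therefore not independent of each other.

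In DoxR-v against WT cells, 9 of 17 measured sterol genes were lower and 1 higher, with a median log2 difference of −0.64, whereas 1 of 10 fatty acid genes was lower and 1 higher, with a median of 0.34. Of all genes, 12.6% were lower and 13.3% higher, and the median over all genes was 0.02. Under median scaling, with which that median was 0.23, 5 fatty acid genes were higher and 1 lower in this comparison, beside 26.4% of all genes higher and 6.41% lower with that scaling. In DoxR against WT cells the sterol arm had 4 lower and 2 higher genes (median −0.35) and the fatty acid arm 2 lower and 2 higher (median −0.05). The shares of all genes were 16.3% lower and 17.4% higher. Median scaling, with a median of 0.18 over all genes, gave 3 lower and 4 higher sterol genes and 1 lower and 3 higher fatty acid genes, beside 10.1% of all genes lower and 26.7% higher. In WT-v against WT cells 4 sterol genes were higher and 1 lower (median 0.08), and 5 fatty acid genes were higher with none lower (median 0.62). The shares of all genes were 14.5% higher and 12.5% lower. The difference between the arms was not tested in these comparisons. The group mean was lowest in DoxR-v cells for 12 of the 17 sterol genes, and highest in WT-v cells for 19 of the 34 members. The same counts were not made over all genes, so whether these are unusual was not tested. FDPS, HSD17B7, INSIG2, SCAP and SREBF2 were called in no comparison between 2 groups.

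**Figure D1:**
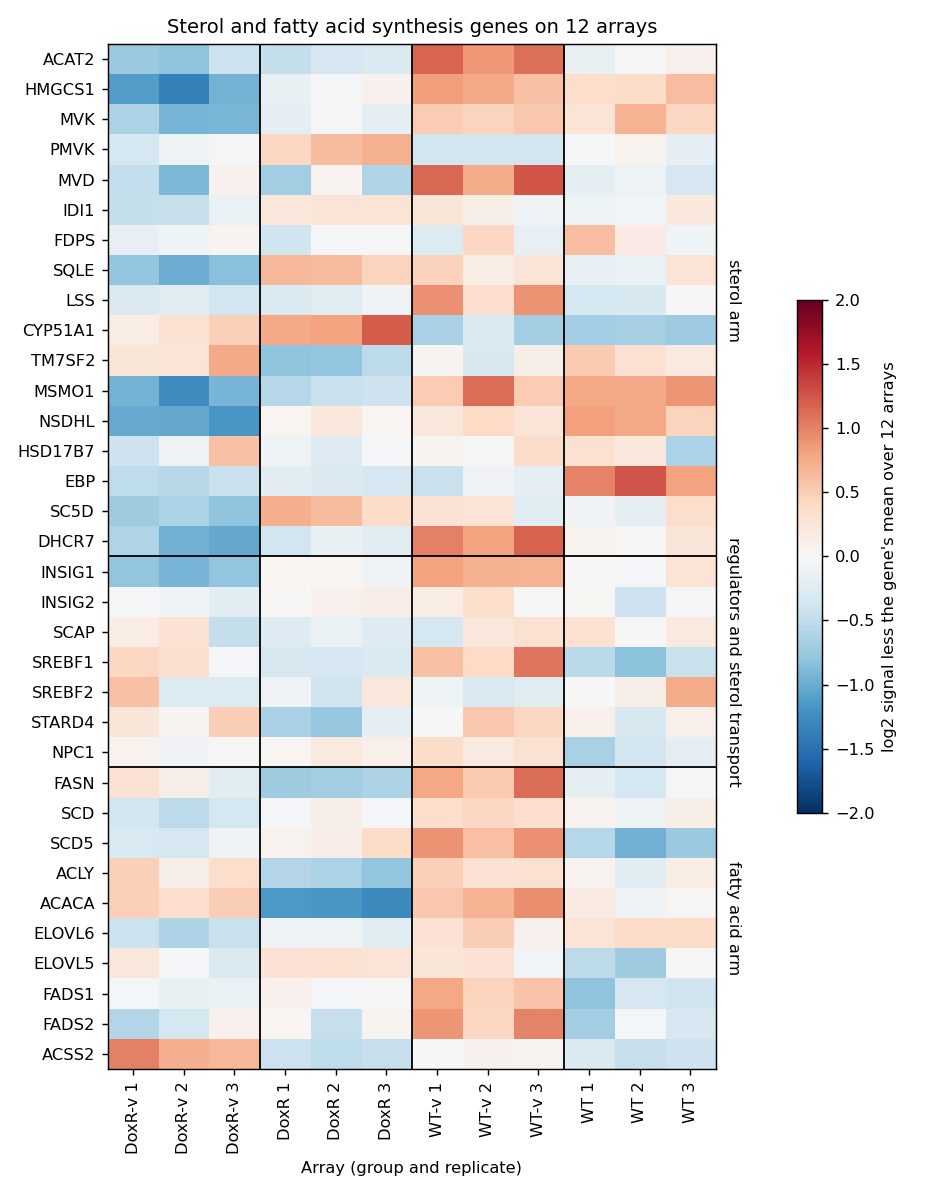
Heat map of the 34 measured members (rows, in pathway order) on the 12 arrays (columns), coloured by log2 signal less the gene's own mean over the 12 arrays (blue lower, red higher). Most sterol arm rows are blue on the 3 DoxR-v arrays, and many rows of all lists are red on the 3 WT-v arrays.

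Cholesterol synthesis opens with acetyl-CoA. ACAT2, the thiolase that joins 2 acetyl-CoA units, had log2 signals of 10.52, 10.45 and 10.83 in DoxR-v, 10.78, 10.92 and 10.98 in DoxR, 12.42, 12.13 and 12.36 in WT-v and 11.12, 11.26 and 11.35 in WT cells. Its mean was lowest in DoxR-v and highest in WT-v cells, and neither group overlapped WT. DoxR-v against WT cells gave a log2 difference of −0.64 (SE 0.15, adjusted p = 0.00546) and WT-v against WT cells one of 1.06 (SE 0.15, adjusted p = 0.000191). DoxR-v was −1.70 (SE 0.15, adjusted p = 3.22e-06) against WT-v cells. The DoxR-v call against WT was lost without DoxR-v replicate 2, where the log2 difference was −0.56. It was also lost with the mean of the 2 detected probes. The second, dimmer probe, detected on 8 arrays, gave −0.34 in DoxR-v and 0.44 in WT-v against WT cells, neither of them called. In DoxR-v against WT-v cells that probe gave −0.78, which was called.

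HMGCS1, which condenses acetyl-CoA units into the precursor of mevalonate, had log2 signals of 9.95, 9.72 and 10.12 in DoxR-v, 10.91, 11.04 and 11.16 in DoxR, 11.89, 11.82 and 11.65 in WT-v and 11.41, 11.43 and 11.68 in WT cells. All 3 DoxR-v arrays lay below every array of the other groups. The log2 difference of DoxR-v cells was −1.58 (SE 0.15, adjusted p = 6.44e-06) against WT, −1.11 (SE 0.15, adjusted p = 8.09e-05) against DoxR and −1.86 (SE 0.15, adjusted p = 1.62e-06) against WT-v cells. DoxR cells were intermediate, at −0.47 (SE 0.15, adjusted p = 0.0234) against WT, a difference below the fold threshold.

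MVK, mevalonate kinase, had log2 signals of 5.76, 5.46 and 5.47 in DoxR-v, 6.21, 6.36 and 6.19 in DoxR, 6.89, 6.84 and 6.93 in WT-v and 6.67, 7.09 and 6.80 in WT cells, and was detected on 1 of 3 DoxR-v arrays and on every array of the other groups. WT-v and WT arrays overlapped, DoxR arrays lay below them, and DoxR-v arrays lay lowest. The log2 difference was −1.29 (SE 0.15, adjusted p = 3.25e-05) in DoxR-v and −0.60 (SE 0.15, adjusted p = 0.00562) in DoxR against WT cells. With the deposited normalized values neither was called, at −0.45 in DoxR-v and −0.24 in DoxR cells. The DoxR call was lost without DoxR replicate 1, DoxR replicate 3 or WT replicate 2, with log2 differences of −0.57, −0.57 and −0.48.

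PMVK, the next kinase, went the other way in DoxR cells, with a mean of 8.89 ± 0.17 in DoxR-v, 9.65 ± 0.16 in DoxR, 8.68 ± 0.01 in WT-v and 9.0 ± 0.13 in WT cells (SD, n = 3 each). The log2 difference was 0.64 (SE 0.14, adjusted p = 0.00272) in DoxR against WT and −0.76 (SE 0.14, adjusted p = 0.00102) in DoxR-v against DoxR cells. The call against WT was lost without DoxR replicate 3 or WT replicate 3, at 0.58 and 0.57. MVD, which makes isopentenyl diphosphate, had log2 signals of 6.51, 6.10 and 7.09 in DoxR-v, 6.32, 7.08 and 6.40 in DoxR, 8.16, 7.75 and 8.26 in WT-v and 6.82, 6.91 and 6.68 in WT cells. All 3 WT-v arrays lay above every other array, with a log2 difference of 1.25 (SE 0.25, adjusted p = 0.00246) against WT, and −1.49 (SE 0.25, adjusted p = 0.00074) for DoxR-v against WT-v cells. IDI1, the isomerase of isopentenyl diphosphate, was lower in DoxR-v against DoxR cells, at −0.60 (SE 0.15, adjusted p = 0.00673), and was not called in the other comparisons between 2 groups. That call was lost without DoxR-v replicate 1 or DoxR-v replicate 2, at −0.54 and −0.56. FDPS, farnesyl diphosphate synthase, ranged over 9.46 to 10.46 on all arrays with overlapping groups.

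SQLE, squalene epoxidase, which adds the first oxygen to squalene, had log2 signals of 10.83, 10.62 and 10.78 in DoxR-v, 12.27, 12.24 and 12.06 in DoxR, 12.07, 11.76 and 11.87 in WT-v and 11.45, 11.48 and 11.88 in WT cells. DoxR-v arrays were the lowest and the DoxR mean was the highest, with no overlap between these groups. Log2 differences were −0.86 (SE 0.15, adjusted p = 0.00108) in DoxR-v against WT, −1.44 (SE 0.15, adjusted p = 1.1e-05) in DoxR-v against DoxR and −1.16 (SE 0.15, adjusted p = 0.000121) in DoxR-v against WT-v cells. DoxR against WT was 0.58 (SE 0.15, adjusted p = 0.00861), just under the fold threshold, and the second probe of the gene gave 0.67, which passed it. LSS, which folds the epoxide into lanosterol, had log2 signals of 8.56, 8.64 and 8.47 in DoxR-v, 8.57, 8.63 and 8.78 in DoxR, 9.77, 9.18 and 9.75 in WT-v and 8.50, 8.54 and 8.85 in WT cells. Only WT-v cells departed, by 0.94 (SE 0.17, adjusted p = 0.00132) against WT, and DoxR-v was −1.01 (SE 0.17, adjusted p = 0.000756) against WT-v cells. With the mean of the 2 detected LSS probes, the second of them detected on 1 array, both calls were lost.

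**Figure D2:**
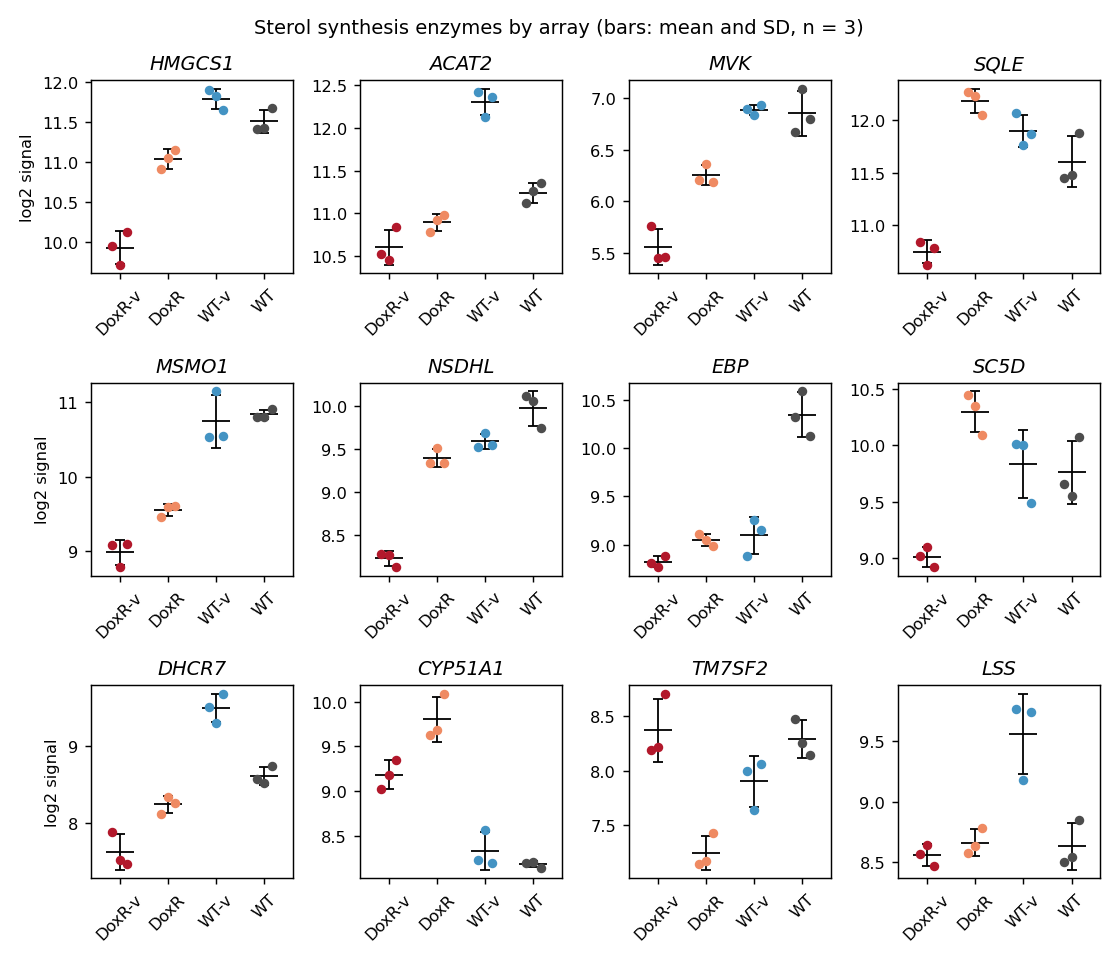
Normalised log2 signal of 12 sterol synthesis enzymes on each array (points), with the mean and SD of the 3 arrays of each group (bars), in DoxR-v, DoxR, WT-v and WT cells from left to right; each panel has its own axis. HMGCS1, SQLE, NSDHL and SC5D are lowest on the 3 DoxR-v arrays, whereas CYP51A1 is higher in both resistant lines than in WT-v and WT cells.

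CYP51A1, the cytochrome P450 that removes a methyl group from lanosterol, was the sterol gene called higher in both resistant lines. Its log2 signals were 9.03, 9.18 and 9.35 in DoxR-v, 9.63, 9.69 and 10.09 in DoxR, 8.23, 8.57 and 8.20 in WT-v and 8.20, 8.22 and 8.15 in WT cells. Every array of DoxR-v and DoxR cells lay above every array of WT-v and WT cells. The log2 difference was 1.00 (SE 0.16, adjusted p = 0.000529) in DoxR-v and 1.61 (SE 0.16, adjusted p = 5.65e-06) in DoxR against WT cells, and DoxR-v was −0.62 (SE 0.16, adjusted p = 0.00945) against DoxR cells. That last call was lost without DoxR-v replicate 1 or DoxR replicate 3, at −0.54 and −0.48.

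TM7SF2, a sterol reductase that acts after CYP51A1, had log2 signals of 8.19, 8.22 and 8.71 in DoxR-v, 7.14, 7.17 and 7.43 in DoxR, 8.0, 7.64 and 8.07 in WT-v and 8.48, 8.25 and 8.14 in WT cells. DoxR arrays alone were low, at −1.04 (SE 0.18, adjusted p = 0.000495) against WT, and DoxR-v was 1.12 (SE 0.18, adjusted p = 0.000321) against DoxR cells.

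MSMO1 (SC4MOL in older annotation), the methylsterol oxidase that starts removal of the remaining methyl groups, had log2 signals of 9.08, 8.79 and 9.09 in DoxR-v, 9.46, 9.59 and 9.61 in DoxR, 10.53, 11.14 and 10.54 in WT-v and 10.80, 10.79 and 10.91 in WT cells. Both resistant lines lay below every WT-v and WT array, and DoxR-v lay below DoxR. The log2 difference was −1.85 (SE 0.17, adjusted p = 5.35e-06) in DoxR-v and −1.28 (SE 0.17, adjusted p = 6.67e-05) in DoxR against WT cells, −1.75 (SE 0.17, adjusted p = 9.08e-06) in DoxR-v against WT-v cells and −0.57 (SE 0.17, adjusted p = 0.0212) in DoxR-v against DoxR cells, the last below the fold threshold. The gene had 3 probes detected on all 12 arrays. All 3 were lower in DoxR-v against WT (−1.85, −1.58 and −0.73) and in DoxR against WT cells (−1.28, −1.03 and −0.74), whereas in WT-v against WT cells they disagreed (−0.09, 0.64 and −0.61), and in DoxR-v against WT-v cells the third differed from the others (−1.75, −2.22 and −0.12).

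NSDHL, the dehydrogenase that works with MSMO1, had log2 signals of 8.29, 8.27 and 8.13 in DoxR-v, 9.34, 9.52 and 9.35 in DoxR, 9.53, 9.69 and 9.55 in WT-v and 10.12, 10.06 and 9.75 in WT cells. The DoxR-v arrays lay more than 1 log2 unit below every other array. The log2 difference of DoxR-v cells was −1.75 (SE 0.14, adjusted p = 1.45e-06) against WT, −1.17 (SE 0.14, adjusted p = 2.78e-05) against DoxR and −1.36 (SE 0.14, adjusted p = 1.31e-05) against WT-v cells. HSD17B7, the reductase of the same complex, ranged over 9.81 to 11.03 with overlapping groups and was not called.

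EBP, the isomerase that moves the ring double bond, had log2 signals of 8.82, 8.78 and 8.89 in DoxR-v, 9.11, 9.05 and 8.99 in DoxR, 8.89, 9.26 and 9.15 in WT-v and 10.32, 10.59 and 10.13 in WT cells. Every array of the other 3 groups lay below every WT array. The log2 difference against WT cells was −1.52 (SE 0.15, adjusted p = 9.7e-06) in DoxR-v, −1.30 (SE 0.15, adjusted p = 2.03e-05) in DoxR and −1.25 (SE 0.15, adjusted p = 6.39e-05) in WT-v cells. The differences of DoxR-v from DoxR (−0.22) and from WT-v (−0.27) were not called.

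SC5D, a desaturase of the last steps, had log2 signals of 9.01, 9.10 and 8.92 in DoxR-v, 10.45, 10.35 and 10.09 in DoxR, 10.01, 10.0 and 9.48 in WT-v and 9.65, 9.55 and 10.07 in WT cells. DoxR-v arrays lay below all others, at −0.75 (SE 0.18, adjusted p = 0.00799) against WT, −1.29 (SE 0.18, adjusted p = 0.000136) against DoxR and −0.82 (SE 0.18, adjusted p = 0.00454) against WT-v cells. DHCR7, which reduces the last precursor to cholesterol, had log2 signals of 7.88, 7.52 and 7.46 in DoxR-v, 8.12, 8.34 and 8.26 in DoxR, 9.50, 9.30 and 9.67 in WT-v and 8.56, 8.51 and 8.73 in WT cells. The order was DoxR-v, DoxR, WT, WT-v, without overlap, although the step between DoxR and WT was not called (log2 difference −0.37). DoxR-v was −0.98 (SE 0.15, adjusted p = 0.000434) against WT and −1.87 (SE 0.15, adjusted p = 2.15e-06) against WT-v cells, and WT-v was 0.88 (SE 0.15, adjusted p = 0.000964) against WT cells. Against DoxR cells it was −0.62 (SE 0.15, adjusted p = 0.00753), a call lost without DoxR-v replicate 2, DoxR-v replicate 3 or DoxR replicate 2, at −0.57, −0.54 and −0.57.

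In DoxR-v against DoxR cells, 9 of 17 sterol genes were lower and 1 higher, with a median log2 difference of −0.60 beside 0.00 over all genes. Of all genes, 14.4% were lower and 14.7% higher. The comparison of DoxR-v against WT-v cells asks how vorinostat-exposed resistant cells differed from vorinostat-exposed parental cells. There 10 sterol genes were lower and 1 higher, with a median of −1.01 beside −0.03 over all genes. Of all genes, 12.8% were lower and 12.6% higher there. The genes lower in this comparison were ACAT2, HMGCS1, MVK, MVD, SQLE, LSS, MSMO1, NSDHL, SC5D and DHCR7, and CYP51A1 was higher, at 0.85 (SE 0.16, adjusted p = 0.00153).

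**Figure D3:**
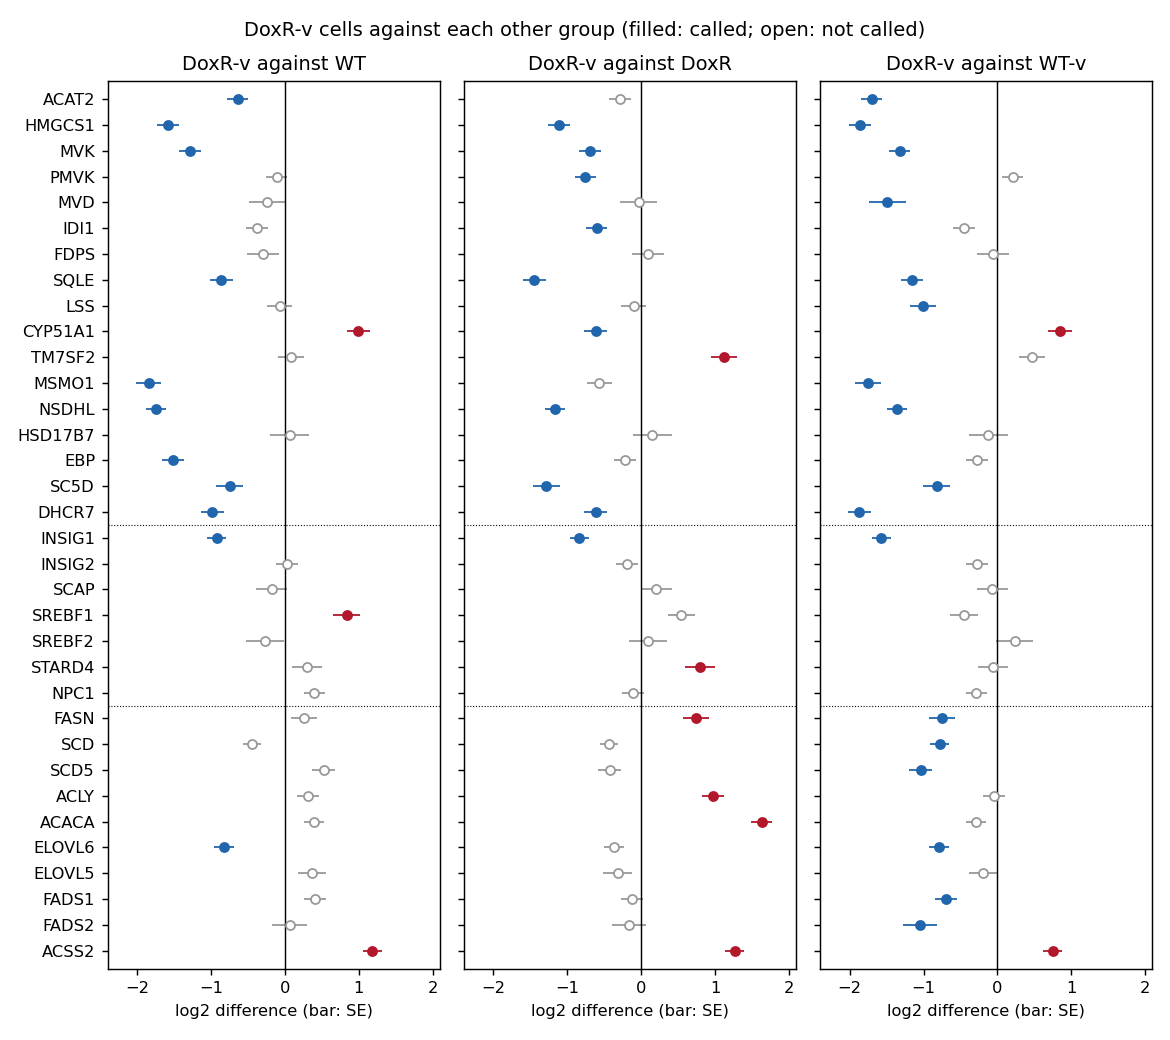
Log2 difference (points) and its standard error (bars) of DoxR-v cells against WT, DoxR and WT-v cells for the 34 measured members, in pathway order, with dotted lines between the sterol arm, the regulators and the fatty acid arm; filled points were called (red higher, blue lower) and open points were not. Of 17 sterol arm points, 14 lie left of 0 in each panel, and of 10 fatty acid points 2 lie left of 0 against WT, 6 against DoxR and 9 against WT-v cells.

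Of the 7 regulators and sterol transport genes, 1 was higher and 1 lower in DoxR-v against WT (median 0.03), none was called in DoxR against WT (median −0.08), and 3 were higher in WT-v against WT cells (median 0.36). The shares of all genes higher and lower were 13.3% and 12.6% in DoxR-v, 17.4% and 16.3% in DoxR, and 14.5% and 12.5% in WT-v cells. With median scaling the counts of these 7 genes were 2 higher and 1 lower in DoxR-v, 2 higher in DoxR and 5 higher in WT-v against WT cells, beside 26.4%, 26.7% and 27.3% of all genes higher in these comparisons. With the deposited normalized values or no background correction the 1 higher in DoxR-v was not called. SREBF1, the factor of the fatty acid genes, had log2 signals of 7.96, 7.86 and 7.51 in DoxR-v, 7.23, 7.21 and 7.26 in DoxR, 8.13, 7.95 and 8.62 in WT-v and 7.0, 6.72 and 7.10 in WT cells. Vorinostat-exposed cells of both kinds lay above WT, by 0.84 (SE 0.18, adjusted p = 0.0044) in DoxR-v and 1.29 (SE 0.18, adjusted p = 0.000255) in WT-v cells, and DoxR cells by 0.29 (SE 0.18, adjusted p = 0.237), which was not called.

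SREBF2, the factor of the cholesterol genes, was dim, with log2 signals of 6.18, 5.33 and 5.33 in DoxR-v, 5.53, 5.20 and 5.82 in DoxR, 5.49, 5.30 and 5.35 in WT-v and 5.59, 5.71 and 6.34 in WT cells, and detected on 1 of 3 DoxR-v and 2 of 3 arrays in each other group. Its log2 difference against WT was −0.27 (SE 0.25, adjusted p = 0.467) in DoxR-v, −0.36 (SE 0.25, adjusted p = 0.286) in DoxR and −0.50 (SE 0.25, adjusted p = 0.152) in WT-v cells. None of these was called. SCAP, the escort protein, had log2 signals of 10.16, 10.30 and 9.54 in DoxR-v, 9.75, 9.87 and 9.76 in DoxR, 9.66, 10.24 and 10.31 in WT-v and 10.32, 10.02 and 10.20 in WT cells. INSIG2, a retention protein, had log2 signals of 7.85, 7.82 and 7.68 in DoxR-v, 7.92, 7.98 and 8.03 in DoxR, 8.05, 8.25 and 7.90 in WT-v and 7.92, 7.49 and 7.86 in WT cells. Neither was called, with log2 differences against WT of −0.18 and 0.03 in DoxR-v, −0.38 and 0.22 in DoxR, and −0.11 and 0.31 in WT-v cells for SCAP and INSIG2.

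INSIG1, the other retention protein and itself a classical SREBP target, had log2 signals of 8.90, 8.75 and 8.90 in DoxR-v, 9.73, 9.73 and 9.61 in DoxR, 10.49, 10.40 and 10.38 in WT-v and 9.70, 9.66 and 9.96 in WT cells. DoxR-v arrays were lowest and WT-v arrays highest, while DoxR and WT overlapped. Log2 differences were −0.92 (SE 0.13, adjusted p = 0.00018) in DoxR-v against WT, 0.65 (SE 0.13, adjusted p = 0.00213) in WT-v against WT, −0.84 (SE 0.13, adjusted p = 0.000244) in DoxR-v against DoxR and −1.57 (SE 0.13, adjusted p = 2.01e-06) in DoxR-v against WT-v cells. A second probe, detected on 3 of 12 arrays, gave 0.28 in DoxR-v against WT cells and was not called, and 1.08 in WT-v against WT cells. The same probe gave 0.44 in DoxR-v against DoxR cells, which was not called, and −0.80 in DoxR-v against WT-v cells, which was called. With the mean of the 2 detected INSIG1 probes, the calls of DoxR-v against WT and against DoxR cells were lost.

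NPC1, which exports cholesterol from lysosomes, had log2 signals of 7.27, 7.12 and 7.19 in DoxR-v, 7.23, 7.38 and 7.29 in DoxR, 7.57, 7.37 and 7.50 in WT-v and 6.54, 6.83 and 7.02 in WT cells. WT-v lay above WT cells by 0.68 (SE 0.14, adjusted p = 0.00308), a call lost without WT replicate 1 (0.56). It was also lost with the deposited normalized values, no background correction or an offset of 50. STARD4, a cytosolic sterol carrier, had log2 signals of 6.06, 5.87 and 6.31 in DoxR-v, 5.17, 5.06 and 5.62 in DoxR, 5.81, 6.35 and 6.24 in WT-v and 5.91, 5.49 and 5.93 in WT cells, and was detected on 3 DoxR-v, 1 DoxR, 3 WT-v and 2 WT arrays. DoxR-v was 0.80 (SE 0.20, adjusted p = 0.00813) against DoxR cells. In DoxR-v against DoxR cells 1 regulator was higher and 1 lower (median 0.09), beside 14.7% and 14.4% of all genes. Median scaling gave 2 higher and 1 lower, beside 16.1% and 13.6% of all genes. With the deposited normalized values, no background correction or an offset of 50, none was higher and 1 lower. In DoxR-v against WT-v cells 1 regulator was lower (median −0.28), beside 12.8% of all genes.

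The fatty acid arm starts with the supply of acetyl-CoA. ACLY, which makes it from citrate, had log2 signals of 12.13, 11.78 and 12.0 in DoxR-v, 11.08, 11.03 and 10.87 in DoxR, 12.14, 11.95 and 11.95 in WT-v and 11.73, 11.42 and 11.80 in WT cells. DoxR arrays lay below all others, at −0.66 (SE 0.15, adjusted p = 0.00334) against WT cells, and DoxR-v was 0.98 (SE 0.15, adjusted p = 0.000231) against DoxR cells. ACSS2, which makes acetyl-CoA from acetate, had log2 signals of 10.33, 10.06 and 10.0 in DoxR-v, 8.90, 8.81 and 8.87 in DoxR, 9.33, 9.42 and 9.39 in WT-v and 9.04, 8.88 and 8.92 in WT cells. All DoxR-v arrays were above every other array, by 1.18 (SE 0.13, adjusted p = 2.41e-05) against WT, 1.27 (SE 0.13, adjusted p = 7.75e-06) against DoxR and 0.75 (SE 0.13, adjusted p = 0.000846) against WT-v cells. A second probe detected on all arrays gave 0.99, 1.10 and 0.66 in the same order, and a dimmer probe detected on 8 arrays gave 0.16, 0.37 and 0.56, which were not called.

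ACACA, acetyl-CoA carboxylase, which commits carbon to fatty acids, had log2 signals of 10.53, 10.38 and 10.53 in DoxR-v, 8.89, 8.89 and 8.77 in DoxR, 10.59, 10.74 and 10.98 in WT-v and 10.21, 9.97 and 10.07 in WT cells. The DoxR arrays were far below the rest, at −1.24 (SE 0.14, adjusted p = 1.54e-05) against WT cells, and DoxR-v was 1.63 (SE 0.14, adjusted p = 1.41e-06) against DoxR cells. WT-v was 0.68 (SE 0.14, adjusted p = 0.00248) against WT cells, a call lost without WT-v replicate 3 (0.58). FASN, the synthase, had log2 signals of 12.45, 12.28 and 11.96 in DoxR-v, 11.45, 11.47 and 11.55 in DoxR, 12.95, 12.70 and 13.29 in WT-v and 11.99, 11.81 and 12.13 in WT cells. WT-v was highest and DoxR lowest. Against each other, the groups gave 1.00 (SE 0.18, adjusted p = 0.00101) in WT-v against WT, 0.74 (SE 0.18, adjusted p = 0.00556) in DoxR-v against DoxR and −0.75 (SE 0.18, adjusted p = 0.00618) in DoxR-v against WT-v cells, while DoxR against WT (−0.49) was not called.

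Among the desaturases, SCD had log2 signals of 11.94, 11.80 and 11.96 in DoxR-v, 12.28, 12.43 and 12.30 in DoxR, 12.67, 12.72 and 12.65 in WT-v and 12.39, 12.23 and 12.43 in WT cells. Between 2 groups it was called in DoxR-v against WT-v cells, at −0.78 (SE 0.12, adjusted p = 0.000422), and in no other comparison. SCD5, the isoform known from brain, had log2 signals of 7.81, 7.78 and 8.05 in DoxR-v, 8.18, 8.25 and 8.48 in DoxR, 9.01, 8.71 and 9.03 in WT-v and 7.55, 7.14 and 7.36 in WT cells. WT arrays were below every array of the other groups, with log2 differences of 1.57 (SE 0.16, adjusted p = 1.41e-05) in WT-v and 0.95 (SE 0.16, adjusted p = 0.000367) in DoxR cells, and of 0.53 in DoxR-v cells, which was not called. DoxR-v was −1.04 (SE 0.16, adjusted p = 0.000303) against WT-v cells. With the mean of the 3 detected SCD5 probes, the calls in DoxR against WT and in DoxR-v against WT-v cells were lost. FADS1, a desaturase of polyunsaturated fatty acids, had log2 signals of 10.49, 10.37 and 10.38 in DoxR-v, 10.60, 10.50 and 10.52 in DoxR, 11.28, 10.95 and 11.08 in WT-v and 9.71, 10.19 and 10.12 in WT cells. FADS2, its partner in that pathway, had log2 signals of 6.06, 6.29 and 6.73 in DoxR-v, 6.69, 6.18 and 6.70 in DoxR, 7.53, 7.05 and 7.63 in WT-v and 5.96, 6.61 and 6.33 in WT cells. Both were higher in WT-v than in WT cells, by 1.10 (SE 0.15, adjusted p = 0.000181) for FADS1 and 1.11 (SE 0.23, adjusted p = 0.00315) for FADS2. Against WT-v cells, DoxR-v cells were lower for both, at −0.69 (SE 0.15, adjusted p = 0.00386) for FADS1 and −1.04 (SE 0.23, adjusted p = 0.00448) for FADS2. With the deposited normalized values both FADS2 calls were lost.

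Of the elongases, ELOVL6, which lengthens saturated chains, had log2 signals of 10.05, 9.87 and 10.05 in DoxR-v, 10.42, 10.38 and 10.26 in DoxR, 10.78, 10.98 and 10.57 in WT-v and 10.75, 10.85 and 10.85 in WT cells. DoxR-v arrays were lowest, at −0.83 (SE 0.14, adjusted p = 0.000626) against WT and −0.78 (SE 0.14, adjusted p = 0.000863) against WT-v cells. ELOVL5, which lengthens polyunsaturated chains, had log2 signals of 10.48, 10.22 and 9.96 in DoxR-v, 10.54, 10.56 and 10.51 in DoxR, 10.49, 10.55 and 10.20 in WT-v and 9.74, 9.55 and 10.27 in WT cells, with 1 WT array close to the other groups. DoxR was 0.69 (SE 0.19, adjusted p = 0.0125) against WT cells, a call lost without WT replicate 2 (0.54).

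**Figure D4:**
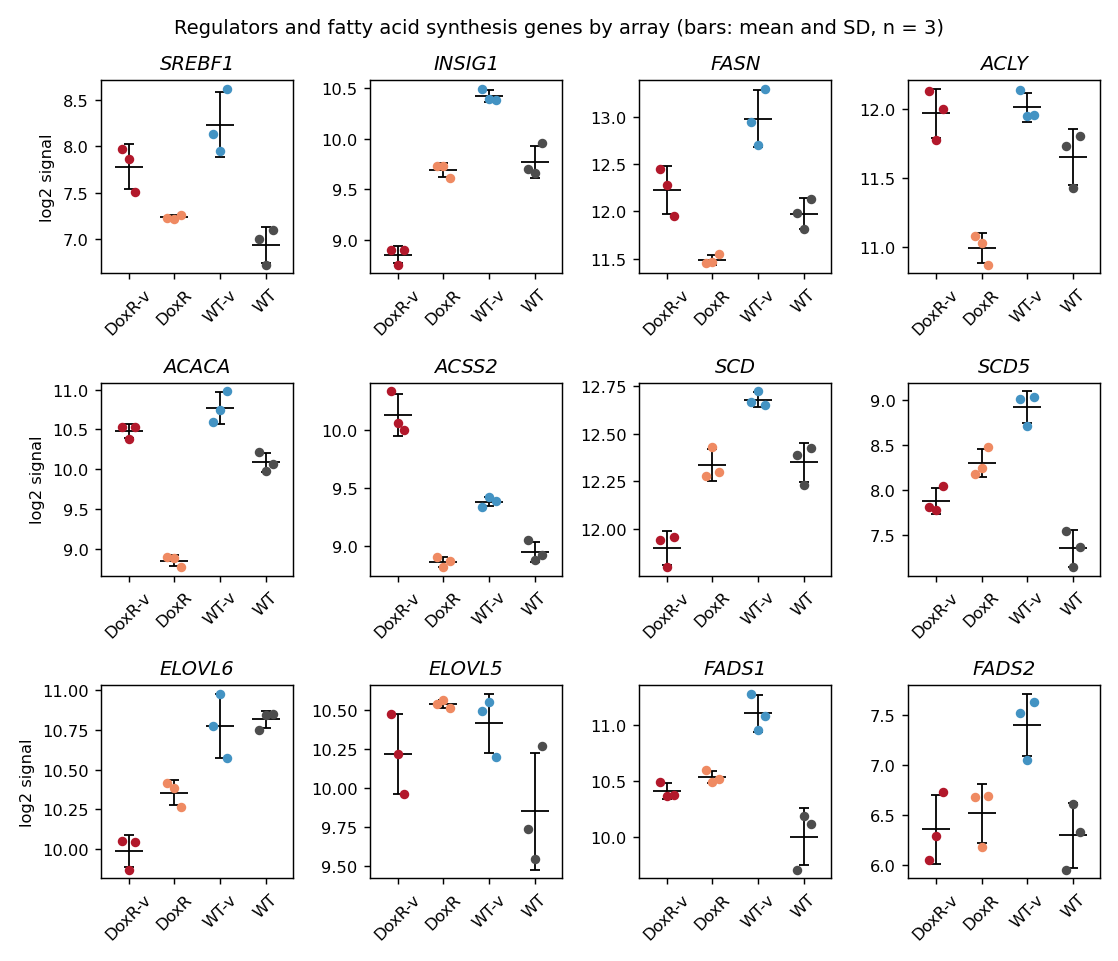
Normalised log2 signal of SREBF1, INSIG1 and the 10 fatty acid genes on each array (points), with the mean and SD of the 3 arrays of each group (bars), in DoxR-v, DoxR, WT-v and WT cells from left to right; each panel has its own axis. ACLY and ACACA are lowest on the 3 DoxR arrays, ACSS2 is highest on the 3 DoxR-v arrays, and FASN, SCD5, FADS1 and FADS2 are highest in WT-v cells.

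In DoxR-v against DoxR cells, 4 of 10 fatty acid genes were higher (FASN, ACLY, ACACA and ACSS2) and none lower, with a median log2 difference of −0.14. Of all genes, 14.7% were higher and 14.4% lower. In DoxR-v against WT-v cells 1 fatty acid gene was higher (ACSS2) and 6 lower (FASN, SCD, SCD5, ELOVL6, FADS1 and FADS2), with a median of −0.72. Of all genes, 12.6% were higher and 12.8% lower there.

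The change that came with vorinostat in resistant cells (DoxR-v less DoxR) was set against the change in parental cells (WT-v less WT) in 1 test per gene. This difference was called higher for 5 and lower for 19 of 34 members, beside 20.4% and 22.1% of all genes. It was lower for 11 and higher for 2 of 17 sterol genes (median −0.76), lower for 3 of 7 regulators (median −0.50), and lower for 5 and higher for 3 of 10 fatty acid genes (median −0.55), beside −0.04 over all genes. Under median scaling, with −0.22 over all genes, 5 fatty acid genes were lower and 1 higher, beside 28.3% of all genes lower and 14.1% higher. The most negative member was SCD5, at −1.99 (SE 0.22, adjusted p = 2.12e-05), followed by SQLE, at −1.74 (SE 0.22, adjusted p = 5.41e-05), and the most positive TM7SF2, at 1.51 (SE 0.25, adjusted p = 0.000526).

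Genes of neighbouring pathways, listed by name, gave the following counts against WT cells, beside the same shares of all genes as above. Of 8 measured genes of SREBP processing and turnover, 1 was higher and 1 lower in DoxR-v, 2 and 2 in DoxR, and 1 and 1 in WT-v against WT cells. SPRING1, a partner of the protease that cuts SREBP, was higher in DoxR-v cells at 0.68 (SE 0.16), and MBTPS1, that protease, was higher in WT-v cells at 0.86 (SE 0.18). ERLIN2, an endoplasmic reticulum protein, was lower in DoxR-v at −1.03 (SE 0.17), in DoxR at −0.82 (SE 0.17) and in WT-v cells at −0.79 (SE 0.17). In DoxR cells FBXW7, which marks nuclear SREBP for destruction, was lower at −0.99 (SE 0.15), and MARCHF6, a ligase that removes sterol enzymes, was higher at 0.97 (SE 0.15). In the isoprenoid branch, 14 genes that draw on the same precursors, none was higher and 2 lower in DoxR-v, 1 and 1 in DoxR, and 1 and none in WT-v cells. PDSS2, of ubiquinone synthesis, was lower in DoxR-v at −1.04 (SE 0.14) and in DoxR cells at −0.84 (SE 0.14). COQ2, of the same pathway, was lower in DoxR-v cells at −0.89 (SE 0.13). GGPS1, geranylgeranyl diphosphate synthase, was higher in DoxR at 0.71 (SE 0.13) and in WT-v cells at 0.67 (SE 0.13).

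Of 13 measured genes of sterol sensing by LXR and of sterol trafficking, 1 was higher and 3 lower in DoxR-v, 3 and 4 in DoxR, and none and 2 in WT-v against WT cells. MYLIP, a ubiquitin ligase known as an LXR target, was lower in DoxR-v at −2.30 (SE 0.16), where it was detected on 1 of 3 arrays. ABCG1, a cholesterol exporter, was lower in DoxR-v at −0.84 (SE 0.24) and in WT-v cells at −1.20 (SE 0.24). STARD3, of late endosomes, was lower in DoxR at −1.19 (SE 0.18), and SOAT1, which esterifies cholesterol, was higher there at 1.08 (SE 0.20). CAV1, the coat protein of caveolae, was detected on 2 WT arrays and on no array of the other groups, so that WT-v cells were at least 1.19-fold lower (adjusted p = 0.0176), a bound set by the dimmest detected signal. Of 22 other genes of fatty acid and glycerolipid synthesis, 1 was higher and 1 lower in DoxR-v, 3 and 4 in DoxR, and 2 and 2 in WT-v cells. LPIN2, a phosphatidate phosphatase, was higher in DoxR-v at 1.22 (SE 0.15) and in DoxR at 1.11 (SE 0.15), and SLC25A1, the carrier that brings citrate to ACLY, was lower in DoxR at −1.32 (SE 0.14). MID1IP1, a partner of acetyl-CoA carboxylase, was lower in DoxR-v at −0.69 (SE 0.13), ACSL1, an acyl-CoA synthetase, was lower in WT-v at −1.21 (SE 0.16), and TECR, of chain elongation, was higher there at 0.81 (SE 0.14).

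Some members lay among chromosomal neighbours that moved with them, a comparison made after the values were seen. Neighbours were the detected genes within 1 Mb of a member in RefSeq GRCh38.p14. Around ACLY, 24 of 39 were higher and 1 lower in DoxR-v against DoxR cells, with a median log2 difference of 0.86 beside 0.98 for ACLY itself. Around ACACA it was 11 of 17 higher and none lower (median 0.67), and around ACSS2 15 of 27 higher and 1 lower (median 0.65). Around SQLE, 7 of 9 were lower and none higher (median −0.98), around SC5D 4 of 5 lower (median −0.77), and around NSDHL 10 of 22 lower and 1 higher (median −0.54). Around CYP51A1, 5 of 7 were higher in DoxR against WT cells (median 0.68) and 4 of 7 in DoxR-v against WT cells (median 0.68). Around EBP, 14 of 34 were lower in DoxR-v, 11 in DoxR and 18 in WT-v against WT cells, with medians of −0.46, −0.35 and −0.61.

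For other members the neighbour median did not share their direction, or was near 0, in some comparisons. The medians were 0.36 around HMGCS1, 0.10 around MVK and 0.03 around DHCR7 in DoxR-v against WT cells, where these genes were lower. In DoxR-v against DoxR cells, where all 3 were lower as well, the medians were −0.50 around HMGCS1 and −0.42 around DHCR7, in the direction of the gene, and 0.23 around MVK. In WT-v against WT cells they were 0.01 around FASN, −0.01 around SCD5, −0.02 around FADS1 and −0.13 around ACAT2, where these genes were higher. In DoxR-v against DoxR cells, 12 of the 15 called members with at least 5 measured neighbours had a neighbour median of their own sign, beside 76.3% of 3122 called genes over the genome. In DoxR against WT cells it was 7 of 9 members, beside 71.9% of called genes, and in WT-v against WT cells 9 of 12, beside 62.3%. The part of such regional shifts in the members' differences was not tested, and no DNA was measured.

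**Figure D5:**
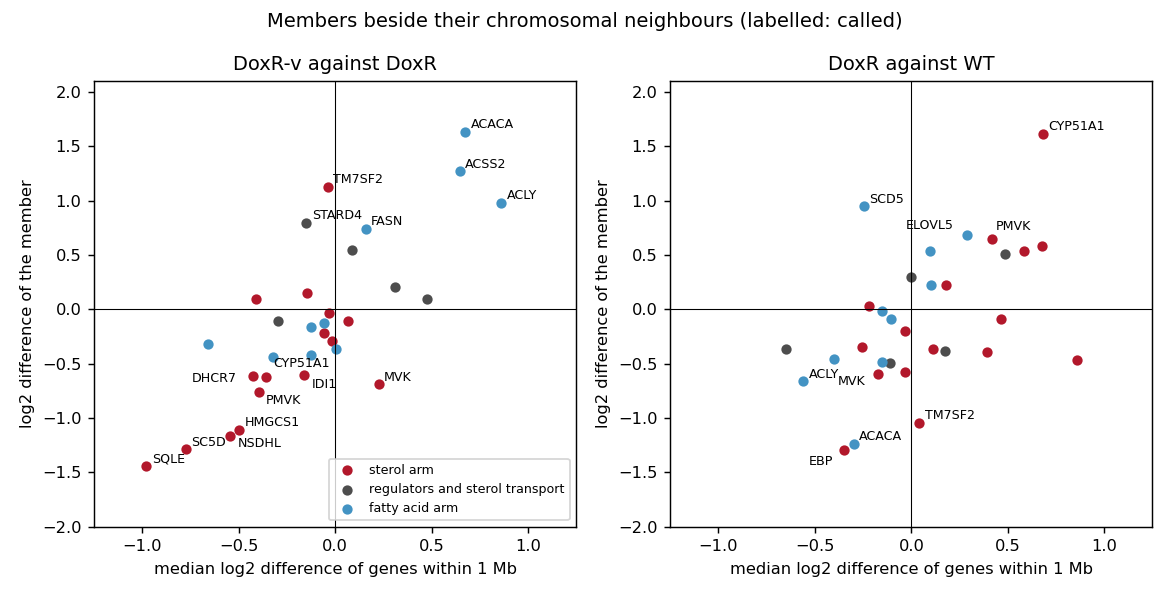
Log2 difference of each member with at least 5 measured neighbours (vertical axis) against the median log2 difference of the genes within 1 Mb of it (horizontal axis), for DoxR-v against DoxR cells (left) and DoxR against WT cells (right), coloured by list; names mark called members. On the left, ACLY, ACACA and ACSS2 lie at the upper right and SQLE, SC5D, NSDHL and HMGCS1 at the lower left.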

How the data were processed

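RNA of 12 specimens, 3 in each of 4 groups, was hybridised to Illumina HT-12 v4 BeadChips. The deposited raw table held probe intensities, with no background correction or normalization, and a detection p-value per probe and array, both as deposited by the authors from the scanner software. A second deposited table held normalized intensity values on a linear scale. Per the labels, lumi (version 2.13.3) under R (version 3.0.1) appears in the submitters' processing notes. The deposited normalized values ranked probes as the raw intensities did on every array (lowest rank correlation 1) and were used as an alternative.

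Background was corrected by normexp, fitted with the detection p-values and an offset of 16, before quantile normalization and a log2 transform in limma 3.58.1 (R 4.3.3). Probes with detection p under 0.01 on at least 1 array were kept (21730 of 47323). Of all probes, 30113 had 1 gene symbol in the platform annotation, 8 several and 17202 none. The brightest kept probe stood for its gene (12138 genes). One mean per group was fitted to all 12 arrays with lmFit and eBayes, without a block, and p-values were adjusted by the Benjamini-Hochberg method over all kept probes for each of 6 comparisons. The fit was tested on simulated arrays. The number of arrays limits the precision.

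Members, lists and tests were chosen with earlier results of these data known. Values on every array are given for members among the 4 called with the greatest log2 difference of their list in a comparison of 2 groups, and for SREBF1, SREBF2, SCAP, INSIG1 and INSIG2. Of each neighbouring list, the 2 called genes with the greatest log2 difference in each comparison with WT are named. Same-numbered replicates did not deviate together: over 18 pairs of arrays, correlations of deviations from the group mean ran from −0.271 to 0.114, and 1 was over 0.1. Promoter windows and gene positions are those of RefSeq GRCh38.p14. Alternatives were the background correction, the offset, the scaling, the deposited values, the detection filter, the mean of all probes, the thresholds, a replicate block, fits of only the groups compared, and leaving out each array.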

Additional observations from a re-analysis of the deposited data

Results flagged for a closer look

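The change that came with vorinostat in resistant cells (DoxR-v less DoxR) differed from the change in parental cells (WT-v less WT) for 24 of 34 members by a test of the difference itself (limma, adjusted p under 0.1 and fold over 1.5), beside 20.4% of all genes called higher and 22.1% called lower. Values are differences of log2 differences. DoxR-v and DoxR cells were selected separately, so vorinostat and the separate selection cannot be told apart.

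In the sterol arm the difference was −1.35 for ACAT2, −1.39 for HMGCS1, −0.73 for MVK, −1.29 for MVD, −0.68 for IDI1, −1.74 for SQLE, −1.04 for LSS, −0.76 for CYP51A1, −0.78 for NSDHL, −1.36 for SC5D and −1.50 for DHCR7. The greatest adjusted p among these was 0.0222, for IDI1. ACAT2, LSS, MVD and DHCR7 were called higher in WT-v against WT cells, and none of these was higher in DoxR-v against DoxR cells. It was positive for TM7SF2 at 1.51 (SE 0.25) and for EBP at 1.02 (SE 0.21).

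Among the regulators it was −1.49 for INSIG1 (SE 0.18), −0.75 for SREBF1 (SE 0.26) and −0.79 for NPC1 (SE 0.20). Among fatty acid genes it was −0.77 for SCD, −1.99 for SCD5, −0.88 for ELOVL5, −1.23 for FADS1 and −1.27 for FADS2. It was positive for ACLY at 0.62 (SE 0.21), ACACA at 0.95 (SE 0.19) and ACSS2 at 0.84 (SE 0.18), whose neighbours within 1 Mb were mostly higher in DoxR-v against DoxR cells (24 of 39, 11 of 17 and 15 of 27). The neighbours of SQLE and SC5D, both negative, were mostly lower there (7 of 9 and 4 of 5). Around MVK, also negative, 4 of 26 were higher and 1 lower in that comparison. Around TM7SF2, which was positive, 5 of 60 were higher and 7 lower. Of all genes, 14.7% were higher and 14.4% lower in DoxR-v against DoxR cells. The difference of the vorinostat effect was not computed for the neighbours. The part of the neighbours' shift in the members' values was not tested.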

How the results depend on the processing

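Of 96 member calls over 6 comparisons, none reversed under the alternatives run. None was lost without the detection filter, with detection on at least 3 arrays, at an adjusted p under 0.05 or, for the 72 that could be compared, when only the groups compared were fitted. Fitting only the groups compared gives no value for the difference of the vorinostat effect, and a BeadChip block was not run, since the files name no BeadChip. With the replicate block, 96 of 96 calls were kept. The labels do not say whether the replicate numbers pair the specimens. The sterol arm had 10 calls in DoxR-v against WT cells with the block as without it.

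The deposited normalized values lost 19 calls, no background correction 13, an offset of 50 lost 7, median scaling 9, the mean of all probes 9 and a fold over 2 lost 45. The cause was not tested. In DoxR-v against WT cells, MVK and SREBF1 were lost with the deposited values, SREBF1 without background correction, ACAT2 and SC5D with median scaling, and ACAT2 and INSIG1 with the mean of probes. ACLY in DoxR against WT cells was lost with median scaling. For the difference of the vorinostat effect, MVK, IDI1, NSDHL, SREBF1, NPC1 and FADS2 were lost with the deposited values.

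Counts of called genes moved by more than 1.5 times as follows. At a fold over 2, the sterol arm had 5 in DoxR-v against WT, 3 in WT-v against WT and 5 in DoxR-v against DoxR cells. The fatty acid arm then had 1 in DoxR-v and 1 in DoxR against WT, 2 in DoxR-v against DoxR, 2 in DoxR-v against WT-v cells and 3 for the difference of the vorinostat effect. The regulators then had 0 in DoxR-v against WT, 1 in WT-v against WT, 0 in DoxR-v against DoxR cells and 1 for the difference. At this fold 4.45% of all genes were higher and 4.39% lower in DoxR-v against WT cells. The shares were 7.59% and 7.12% in DoxR and 4.6% and 4.71% in WT-v against WT cells. They were 6.14% and 6.07% in DoxR-v against DoxR, 5.05% and 4.19% in DoxR-v against WT-v cells, and 11.3% and 11.9% for the difference. With the deposited values and without background correction, the sterol arm had 6 in DoxR-v against DoxR cells, and the regulators 1 in DoxR-v against WT, 1 in DoxR-v against DoxR cells and 1 for the difference. With the deposited values, 5.14% of all genes were higher and 5.67% lower in DoxR-v against WT cells. The shares were 7.06% and 7.3% in DoxR-v against DoxR cells and 11.9% and 12.2% for the difference. Without background correction these shares were 6.6% and 7.03%, 8.71% and 8.58%, and 14% and 14.7%, in that order. With an offset of 50 the regulators had 1 in DoxR-v against DoxR cells, beside 11.1% of all genes higher and 11% lower. With the mean of probes the regulators had 1 in DoxR-v against WT, 1 in DoxR-v against DoxR and 2 in DoxR-v against WT-v cells. The shares of all genes higher and lower were then 12.9% and 12%, 14.4% and 13.9%, and 12.2% and 12.4%, in that order. Median scaling gave 6 fatty acid genes in DoxR-v against WT and 2 regulators in DoxR and 5 in WT-v against WT cells. Of all genes, 26.4% were then higher and 6.41% lower in DoxR-v, 26.7% and 10.1% in DoxR, and 27.3% and 6.74% in WT-v against WT cells. Leaving out 1 array moved only the regulators by that much, to 0 to 1 in DoxR against WT cells (1 without DoxR replicate 3, WT replicate 2 or WT replicate 3) and 1 to 2 in DoxR-v against WT-v cells (2 without WT-v replicate 2). Of all genes, 17.4%, 16.6% and 19.8% were then higher and 16.3%, 16.4% and 18% lower in DoxR against WT cells, in that order. In DoxR-v against WT-v cells it was 13.5% and 14.1%. Dim signal limits MVK, SREBF2 and STARD4.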
